A study of Homo sapiens with 12 samples.

Results

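The 10 genes described here are the ErbB receptors EGFR, ERBB2, ERBB3 and ERBB4, the insulin-like growth factor and insulin receptors IGF1R and INSR, the docking proteins IRS1 and IRS2, the adaptor GRB10 and the feedback inhibitor ERRFI1. They were chosen by name from the 63299 genes of the deposited count tables, and all 10 were found. RNA was measured in 12 libraries of LNCaP-shPRMT5 cells, 3 in each of 4 groups. LNCaP is an androgen-responsive line from a lymph node metastasis of a prostate cancer, and here it carries a doxycycline-inducible short hairpin against PRMT5, an arginine methyltransferase of the symmetric type that acts on histones and splicing proteins. The irradiated knockdown cells were kept in doxycycline (1 µg/mL, renewed every 48 h), given 2 Gy and harvested 24 h later. The irradiated control cells received 2 Gy without doxycycline. The non-irradiated knockdown cells received the same doxycycline and 0 Gy, and the non-irradiated control cells received neither. All 4 groups are the same hairpin-bearing line, so doxycycline and the hairpin always changed together, and whether the line is 1 clone is not given in the sources used here. The irradiated and the non-irradiated libraries were deposited as separate count tables, so irradiation and the table cannot be told apart. The labels do not say whether a group's libraries are separate cultures; the spread behind each p-value may therefore be a technical one.

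ErbB receptors are tyrosine kinases of the cell surface that pair with each other when ligands of the EGF and neuregulin families bind. ERBB2 has no known ligand of its own and serves as a partner, and ERBB3 has a weak kinase but many docking sites for phosphoinositide 3-kinase (PI3K). IGF1R and INSR bind insulin-like growth factors and insulin and phosphorylate the docking proteins IRS1 and IRS2, which also recruit PI3K. GRB10 binds the activated insulin and IGF receptors and dampens their signal, and ERRFI1 (also called MIG6) binds the EGFR kinase domain and inhibits it.

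Counts per library totalled between 14801939 and 33158865. Levels are given as CPM, the counts scaled to a common library size. PRMT5 was 31.3, 26.9 and 24.9 CPM in the irradiated knockdown libraries, against 230, 187 and 187 CPM in the irradiated controls. It was 26.6, 30.8 and 32.8 CPM in the non-irradiated knockdown libraries, against 186, 190 and 198 CPM in their controls, so that the knockdown means were 13.8% of the control mean at 2 Gy and 15.7% at 0 Gy. Of its exon positions 27.1% also belong to the antisense gene PRMT5-AS1. The 9 luminal prostate markers, among them KLK3 and KLK2, were detected in every library, with a summed level between 6929 and 10421 CPM. The summed level of the 4 leukocyte markers stayed at or below 0.551 CPM, with CD3E at 0, while the 4 basal markers summed to 1.83 to 11.5 CPM with TP63 near 0. The basal marker KRT5 reached 8.44 CPM in 1 non-irradiated knockdown library, which carried the whole of that group's mean of 2.81 CPM. It averaged 1.70 CPM in the non-irradiated controls, against 0.0150 and 0 CPM in the irradiated knockdown and control cells. These KRT5 means therefore do not show a difference by irradiation. The 4 fibroblast markers summed to 12.7 to 27.8 CPM, nearly all COL1A1, with COL1A2 at 0. Both libraries numbered 1 at 2 Gy stood apart from the rest: 4.78% of 11188 genes in the knockdown library and 8.43% in the control library lay more than 1 log2 unit from the median over all libraries, against 0.447% to 2.07% in the other 10. Members' results that change their call or direction without them are given with and without them. Other members' results moved in size by over 1.5 times, not all of them given here.

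Of the receptors, ERBB2 was the most abundant per length of transcript and ERBB4 was close to absent. Per kilobase of exon, ERBB2 averaged 25.7 ± 4.84 CPM in the non-irradiated controls (SD, n = 3, as for all group means below), ERBB3 14.996 ± 3.15, EGFR 7.22 ± 0.585, IGF1R 3.44 ± 1.03 and INSR 2.95 ± 0.570 CPM per kilobase. The adaptor GRB10 stood above all of them at 91.3 ± 16.1 CPM per kilobase, and its lowest control library lay above the highest ERBB2 library. ERRFI1 averaged 17.2 ± 1.84 CPM per kilobase there. The docking proteins were far lower, IRS1 at 0.697 ± 0.0755 and IRS2 at 0.499 ± 0.146 CPM per kilobase. In this order GRB10 and ERBB2 did not overlap in any of the 4 groups, while ERRFI1 overlapped ERBB3 and IGF1R overlapped INSR in all of them. In knockdown cells without irradiation ERBB2 averaged 28.3 ± 5.28 and ERBB3 20.03 ± 4.27 CPM per kilobase, and the pair overlapped. IRS1 lay above IRS2 without overlap in both non-irradiated groups, and the pair overlapped in both irradiated groups.

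ERBB4 had 36 reads in all 12 libraries together. It had 5, 3 and 2 reads in the irradiated knockdown libraries, 2, 6 and 4 in the irradiated controls, 4, 4 and 3 in the non-irradiated knockdown libraries and 2, 1 and 0 in the non-irradiated controls. A count of 0 in that last library allows a level of up to 0.152 CPM at its unscaled library size, for counting error only. ERBB4 did not pass the filter on low counts, which asks for 10 reads in about as many libraries as the smallest group holds, and it was not tested. The other 9 genes passed and had between 64 reads in a library, for IRS2, and 25093 reads, for GRB10.

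**Figure D1:**
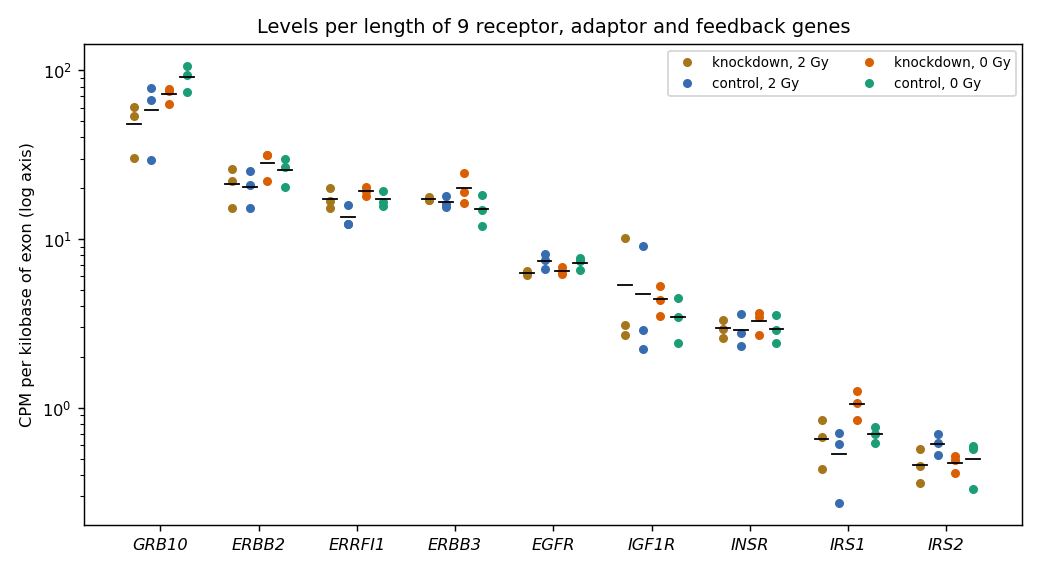
Level per length of the 9 tested genes, as CPM per kilobase of exon on a log axis, in each library (points) with the group mean (bars), for knockdown and control cells at 2 Gy and at 0 Gy. GRB10 lies highest and IRS1 and IRS2 lowest, and 1 irradiated library of each kind lies far above the others for IGF1R.

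On GRCh38, as the tables give it, the receptors lie at chr7:55019021-55211628 (EGFR, plus strand), chr17:39687914-39730426 (ERBB2, plus), chr12:56079857-56103505 (ERBB3, plus), chr2:211375717-212538841 (ERBB4, minus), chr15:98648971-98964530 (IGF1R, plus) and chr19:7112255-7294034 (INSR, minus). The adaptors lie at chr2:226731317-226799759 (IRS1, minus), chr13:109752698-109786568 (IRS2, minus) and chr7:50590063-50793462 (GRB10, minus), and ERRFI1 lies at chr1:8004404-8026308 on the minus strand. Of the exon positions of ERBB2, 7.41% also belong to MIEN1 or PGAP3 on the other strand. That share was 1.49% for EGFR, shared with EGFR-AS1, and 1.41% for IRS2. The strand setting of the counting is not given in the sources used here, so reads over those positions cannot be assigned to either gene. ERBB3 shares 0.358% of its exon positions with a gene of its own strand, and the other 6 share 0.

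The first comparison asked what PRMT5 knockdown did to these genes. With every library taken as independent, 0 of 9 tested genes changed at 2 Gy, at 0 Gy or in the mean of both doses, by edgeR's quasi-likelihood test with Benjamini-Hochberg adjustment over 17191 genes. The share of all genes called was 0.297% at 2 Gy, 1.54% at 0 Gy and 6.52% in the mean of both doses. At an unadjusted p under 0.05 there were 2 of the 9 at 2 Gy (EGFR and ERRFI1), 1 at 0 Gy (ERBB3) and 2 in the mean (EGFR and ERRFI1), and DESeq2 called 0 in each of the 3. Under that unadjusted rule stood 9.28% of all genes at 2 Gy, 17.4% at 0 Gy and 22.7% in the mean. Libraries of the same number within a table deviated together from their group means, and the comparison within those pairs gave a different count. With the replicate number as a block, 6 of the 9 changed in the mean of both doses: ERRFI1, IGF1R, ERBB3 and IRS1 rose, and EGFR and GRB10 fell. The background under the same rule was 34.3% of all genes, with 17% called higher and 17.3% lower. With the block 1 gene, ERRFI1, was called at 2 Gy, beside 11.5% of all genes, and 3 genes, ERBB3, IGF1R and IRS1, were called at 0 Gy, beside 27.8%. Without a block but also without both libraries numbered 1 at 2 Gy, 3 members were called in the mean of both doses (EGFR and GRB10 lower, ERRFI1 higher) and 1 at 0 Gy (IRS1). In that setting 3378 and 2564 genes in all were called, against 1120 and 265 with all libraries. Without all 4 libraries numbered 1 there were 5 in the mean (EGFR, GRB10, ERRFI1, ERBB3 and IRS1), 3 at 0 Gy (ERBB3, IRS1 and GRB10) and 1 at 2 Gy (ERRFI1). Beside these stood 4761, 3525 and 1461 genes in all. The median log2 fold change of the 9 with the block was 0.10 in the mean of both doses, beside 0.01 over all genes tested. Of the luminal markers 1, HOXB13, rose and 3, FOLH1, KRT18 and TMPRSS2, fell with the block in the mean of both doses, and the neuroendocrine marker ENO2 rose by 0.18 log2 units (SE 0.05, edgeR adjusted p = 0.0153); their part in the members' results was not tested.

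EGFR, the receptor of EGF, amphiregulin and other ligands, was lower in knockdown in every pair. It was 80.6, 76.6 and 79.0 CPM in irradiated knockdown libraries, against 82.6, 93.9 and 101 CPM in irradiated controls. It was 85.2, 77.9 and 80.9 CPM in non-irradiated knockdown libraries, against 92.5, 82.1 and 96.2 CPM in their controls. The groups did not overlap at 2 Gy, as for 13.5% of all genes, and overlapped at 0 Gy. The log2 fold change in the mean of both doses was -0.19 (SE 0.05, edgeR adjusted p = 0.0138) with the replicate block and -0.19 (SE 0.07, adjusted p = 0.143) without it. The call was lost when the pair numbered 3 at 0 Gy (adjusted p = 0.0650), the pair numbered 2 at 2 Gy (0.0514) or the pair numbered 3 at 2 Gy (0.0711) was left out, with edgeR and the block. The highest EGFR library was 1.32 times the lowest, the narrowest range of the 9 genes over the 12 libraries.

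ERBB3, the receptor of neuregulins with docking sites for PI3K, differed most clearly without irradiation. It was 141, 165 and 214 CPM in non-irradiated knockdown libraries, against 103, 129 and 158 CPM in their controls, and each knockdown library lay above the control of its number while the groups overlapped. With irradiation it was 147, 147 and 155 CPM in knockdown libraries, against 156, 134 and 139 CPM in controls, and the pair numbered 1 went the other way. With the block, the log2 fold change was 0.07 at 2 Gy (SE 0.07, edgeR adjusted p = 0.535) and 0.42 at 0 Gy (SE 0.07, adjusted p = 0.00105). Without the block it was 0.42 at 0 Gy (SE 0.17, adjusted p = 0.234). At 2 Gy without the block it was 0.07, and 0.15 when both libraries numbered 1 at 2 Gy were also left out, not called either way. The difference between the doses, tested as an interaction with the block, was -0.35 (SE 0.09, unadjusted p = 0.00289, edgeR adjusted p = 0.234), so the knockdown effect on ERBB3 was not shown to differ between doses.

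ERBB2 was higher in knockdown in 6 of 6 pairs but by little. It was 158, 229 and 270 CPM in irradiated knockdown libraries, against 157, 215 and 260 CPM in irradiated controls. It was 229, 324 and 323 CPM in non-irradiated knockdown libraries, against 211, 309 and 276 CPM in their controls. The libraries differed more within a group than between groups. The fold in the mean of both doses was 1.07 (95% interval 0.999 to 1.14, edgeR adjusted p = 0.119) with the block and 1.07 (95% interval 0.829 to 1.38, adjusted p = 0.789) without it.

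**Figure D2:**
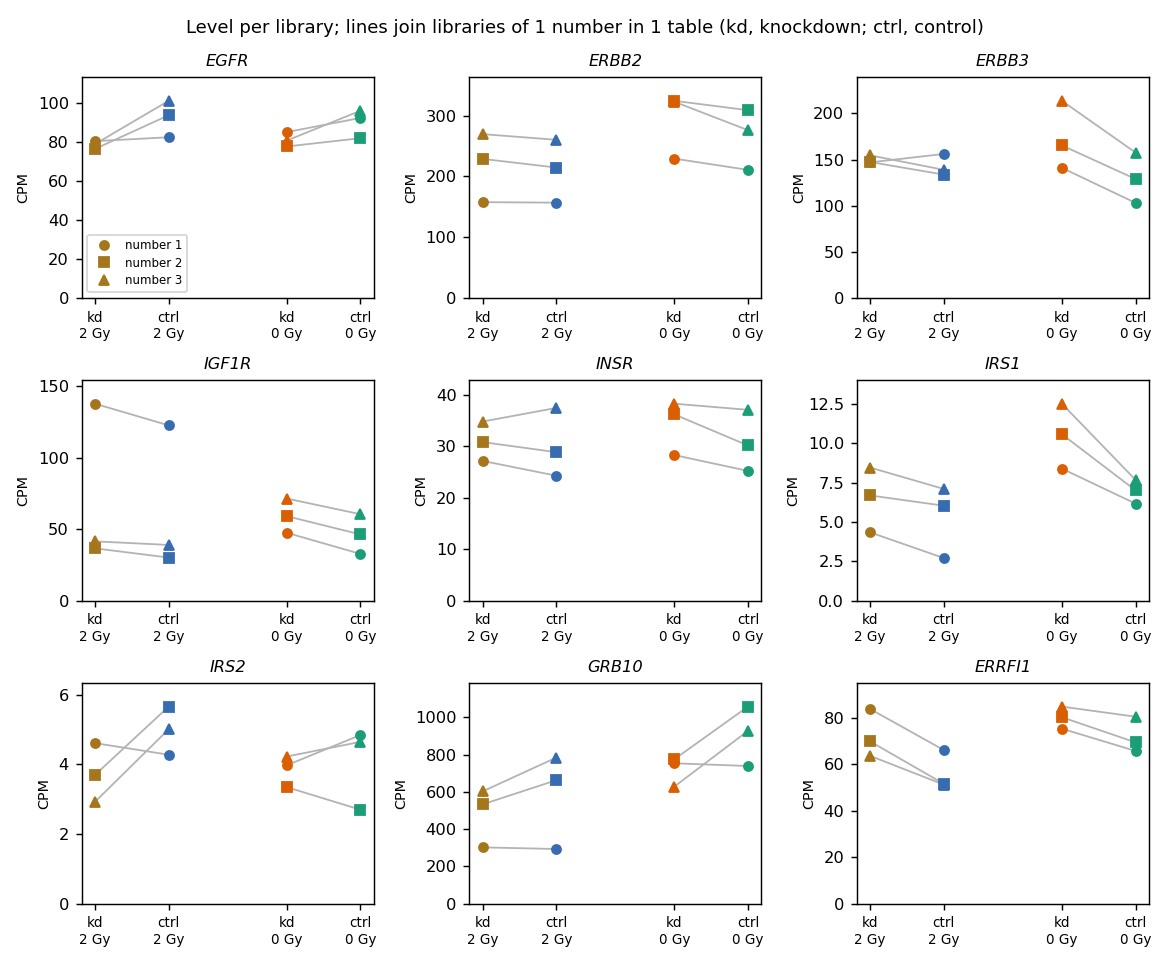
CPM of each tested gene in each library, with knockdown (kd) left of control (ctrl) at 2 Gy and at 0 Gy, the marker shape giving the library number and lines joining libraries of the same number in 1 table. EGFR is lower in knockdown along all 6 lines, whereas ERBB2, IGF1R, IRS1 and ERRFI1 are higher in knockdown along all 6, and IGF1R in both irradiated libraries numbered 1 lies above 120 CPM.

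IGF1R, the receptor of insulin-like growth factors, was higher in knockdown in all 6 pairs, but its level depended more on the library number than on knockdown. It was 138, 36.6 and 41.5 CPM in irradiated knockdown libraries, against 122, 30.2 and 39.0 CPM in irradiated controls. It was 47.5, 59.1 and 71.4 CPM in non-irradiated knockdown libraries, against 32.7, 46.4 and 60.5 CPM in their controls. The pair numbered 1 at 2 Gy, which stood apart in general, was higher than every other library. With the block the log2 fold change was 0.18 at 2 Gy (SE 0.07, edgeR adjusted p = 0.128), 0.37 at 0 Gy (SE 0.07, adjusted p = 0.00347) and 0.27 in the mean (SE 0.05, adjusted p = 0.00172). Without the block the mean was 0.26 with an SE of 0.39 (adjusted p = 0.752). INSR, the insulin receptor, was 27.2, 30.8 and 34.8 CPM in irradiated knockdown libraries against 24.3, 28.8 and 37.4 CPM in irradiated controls, and 28.3, 36.2 and 38.2 CPM in non-irradiated knockdown libraries against 25.2, 30.1 and 37.1 CPM in their controls. It was higher in knockdown in 5 of 6 pairs, and its fold in the mean of both doses was 1.07 (95% interval 0.986 to 1.17, edgeR adjusted p = 0.181) with the block.

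IRS1, the docking protein of both IGF1R and INSR, had the largest fold of the 9 in the mean of both doses. It was 4.34, 6.68 and 8.45 CPM in irradiated knockdown libraries, against 2.71, 6.03 and 7.09 CPM in irradiated controls. It was 8.38, 10.6 and 12.5 CPM in non-irradiated knockdown libraries, against 6.16, 7.00 and 7.66 CPM in their controls. The non-irradiated groups did not overlap, as for 31.1% of all genes, whereas the irradiated groups did. With the block the log2 fold change was 0.34 at 2 Gy (SE 0.14, edgeR adjusted p = 0.140), 0.59 at 0 Gy (SE 0.14, adjusted p = 0.00869) and 0.46 in the mean (SE 0.10, adjusted p = 0.00367), which is a fold of 1.38 (95% interval 1.19 to 1.60). Without the block the mean was 0.45 (SE 0.23, adjusted p = 0.288). The call at 0 Gy was lost without the pair numbered 2 at 0 Gy (adjusted p = 0.0502) or the pair numbered 3 at 0 Gy (0.0718), and the call in the mean held without any single pair.

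IRS2, the other docking protein, gave no such pattern. It was 4.61, 3.69 and 2.92 CPM in irradiated knockdown libraries, against 4.28, 5.66 and 5.00 CPM in irradiated controls, and 3.97, 3.35 and 4.22 CPM in non-irradiated knockdown libraries, against 4.84, 2.70 and 4.64 CPM in their controls. It was lower in knockdown in 4 of 6 pairs and higher in the other two. The log2 fold change in the mean was -0.23 (95% interval -0.53 to 0.07, edgeR adjusted p = 0.216) with the block, and -0.37 (adjusted p = 0.0482) without the pair numbered 1 at 2 Gy. Without the block it was -0.41 at 2 Gy and -0.24 in the mean. It was -0.69 and -0.38 when that pair was also left out, not called in either setting. The difference between IRS1 and IRS2 was not tested.

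GRB10, which dampens the insulin and IGF receptors, was the most abundant of the 9 and, with the block, fell where IGF1R and IRS1 rose. It was 302, 533 and 602 CPM in irradiated knockdown libraries, against 294, 663 and 784 CPM in irradiated controls. It was 754, 775 and 628 CPM in non-irradiated knockdown libraries, against 739, 1058 and 928 CPM in their controls. In the pairs numbered 1 knockdown lay above control by 0.04 log2 units at 2 Gy and 0.03 at 0 Gy, and in the other 4 it was lower. The log2 fold change in the mean of both doses was -0.27 (SE 0.08, edgeR adjusted p = 0.0286) with the block and -0.31 (SE 0.23, adjusted p = 0.476) without it. With the block the call was lost without the pair numbered 2 at 0 Gy (adjusted p = 0.109), 3 at 0 Gy (0.102), 2 at 2 Gy (0.0884) or 3 at 2 Gy (0.0932).

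ERRFI1, the inhibitor of the EGFR kinase, was higher in knockdown in 6 of 6 pairs. It was 83.9, 69.9 and 63.7 CPM in irradiated knockdown libraries, against 66.2, 51.7 and 51.3 CPM in irradiated controls. It was 75.4, 80.4 and 84.9 CPM in non-irradiated knockdown libraries, against 65.8, 69.5 and 80.6 CPM in their controls. The groups overlapped at both doses, and the pairs at 2 Gy differed by 0.31 to 0.44 log2 units against 0.08 to 0.21 at 0 Gy. With the block the log2 fold change was 0.36 at 2 Gy (SE 0.06, edgeR adjusted p = 0.00401) and 0.16 at 0 Gy (SE 0.06, adjusted p = 0.0737). It was 0.26 in the mean (SE 0.04, adjusted p = 0.000858), and 0.26 (SE 0.10, adjusted p = 0.138) without the block. The interaction with dose was 0.20 (SE 0.09, unadjusted p = 0.0373, edgeR adjusted p = 0.388) with the block. The call at 2 Gy was lost without the pair numbered 2 at 2 Gy (adjusted p = 0.0862) or 3 at 2 Gy (0.0525).

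Of the 9 genes, EGFR was lower in all 6 pairs and ERBB2, IGF1R, IRS1 and ERRFI1 were higher in all 6, a uniform sign that 28.8% of all genes had. No member passed the interaction of knockdown and irradiation, with or without the block, and no gene of the 17191 did by edgeR, 0% with either fit; DESeq2 called 1 gene without the block and 65 with it. At an unadjusted p under 0.05 there were 0 members without the block and 2 with it, ERBB3 and ERRFI1, and DESeq2 without the block called 0 members. Of all genes 2.04% had such a p without the block and 12.2% with it. In bulk RNA a smaller share of cells with a transcript and less of it per cell cannot be told apart.

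**Figure D3:**
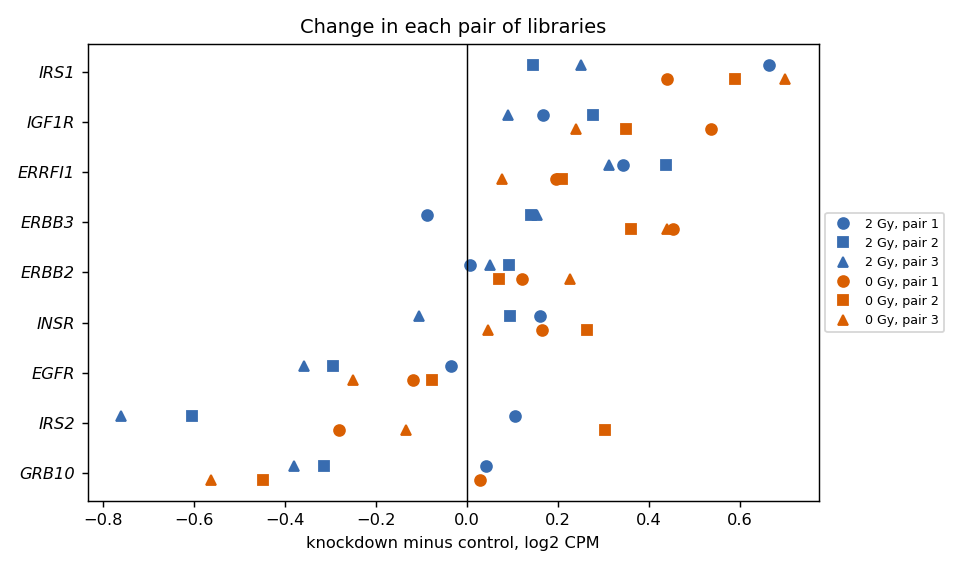
Difference between knockdown and control in log2 CPM in each of the 6 pairs of same-numbered libraries, for the 9 tested genes, with 2 Gy drawn above 0 Gy and the pair number as the marker shape. IRS1 ranges from 0.15 to 0.70 and EGFR from -0.36 to -0.04, each on 1 side of 0, while ERBB3, INSR, IRS2 and GRB10 fall on both sides.

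**Figure D4:**
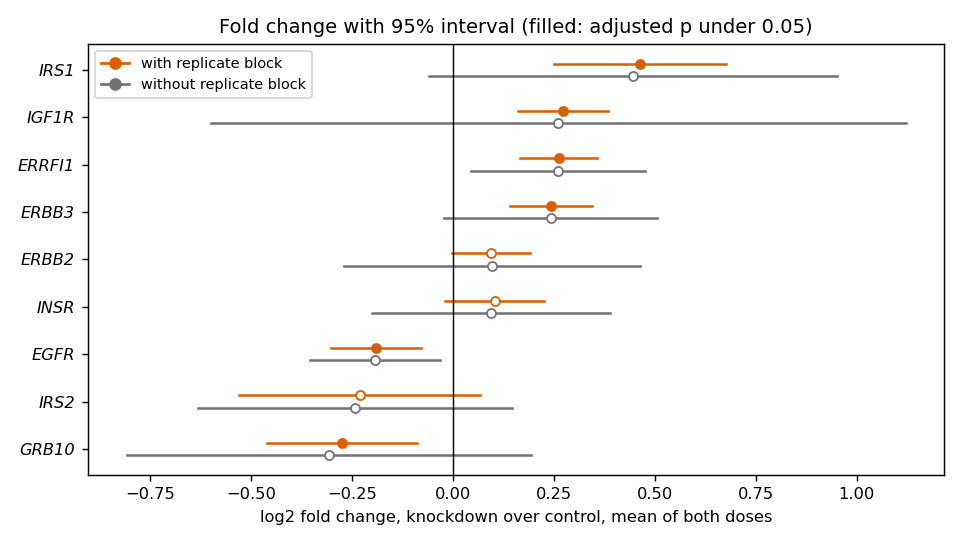
Log2 fold change of knockdown over control in the mean of both doses with its 95% interval, from edgeR with the replicate block and without it; filled points passed an adjusted p under 0.05. The estimates barely differ between the fits, and the intervals without the block are wider for each of the 9 genes, most of all for IGF1R (SE 0.39 without the block, against 0.05 with it).

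The regions before the transcription starts are shown for IGF1R, IRS1 and ERRFI1, called higher in knockdown with the block and higher in every pair, and for EGFR, called lower and lower in every pair. ERBB2, also higher in every pair but not called, a second listed EGFR start and the other listed members are given by their values after the sequences. Each is the 250 bases before the RefSeq start on GRCh38.p14, read 5′ to 3′ on the gene's own strand, and capitals mark the GC box GGGCGG on either strand. The windows are chr7:55018767-55019016 (plus) for EGFR, chr15:98648289-98648538 (plus) for IGF1R, chr2:226799821-226800070 (minus) for IRS1 and chr1:8026310-8026559 (minus) for ERRFI1.
EGFR: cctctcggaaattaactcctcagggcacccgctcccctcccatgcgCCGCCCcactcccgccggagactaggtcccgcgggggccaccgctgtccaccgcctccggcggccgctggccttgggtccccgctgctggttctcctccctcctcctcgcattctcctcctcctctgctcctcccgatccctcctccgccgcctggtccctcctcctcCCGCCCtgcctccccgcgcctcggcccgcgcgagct
IGF1R: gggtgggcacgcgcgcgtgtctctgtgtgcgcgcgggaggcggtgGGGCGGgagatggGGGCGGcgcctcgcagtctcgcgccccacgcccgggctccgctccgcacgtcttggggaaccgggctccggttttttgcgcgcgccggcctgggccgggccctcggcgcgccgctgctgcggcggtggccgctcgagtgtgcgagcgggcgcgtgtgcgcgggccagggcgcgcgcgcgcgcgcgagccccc
IRS1: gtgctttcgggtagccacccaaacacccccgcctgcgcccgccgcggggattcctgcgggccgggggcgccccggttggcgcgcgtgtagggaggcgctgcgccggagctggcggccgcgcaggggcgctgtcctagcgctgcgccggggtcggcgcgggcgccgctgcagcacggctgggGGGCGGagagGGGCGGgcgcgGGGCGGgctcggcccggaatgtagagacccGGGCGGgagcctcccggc
ERRFI1: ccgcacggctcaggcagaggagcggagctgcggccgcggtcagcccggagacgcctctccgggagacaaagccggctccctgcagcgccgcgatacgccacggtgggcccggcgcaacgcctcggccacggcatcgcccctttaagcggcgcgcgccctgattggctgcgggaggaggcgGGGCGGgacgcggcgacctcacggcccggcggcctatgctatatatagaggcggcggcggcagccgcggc
IRS1 held 4 GC boxes, IGF1R and this EGFR start 2 each and ERRFI1 held 1, whereas 42.6% of 35116 RefSeq promoters of the same length held at least 1. The GC content was 81.2% for IGF1R, 80.8% for IRS1, 75.2% for ERRFI1 and 73.6% for EGFR, beside a median of 58% over all promoters. No match to the forkhead motif GTAAACA, the E-box CACGTG or the cAMP element TGACGTCA was found on either strand of these 4 windows; 2.98%, 6.34% and 1.65% of all promoters held them. The ERBB2 window held 0 GC boxes and 1 match to the AP-1 motif TGANTCA, at 65.6% GC, and the second EGFR start held 0 GC boxes and 2 such matches, at 38.8% GC; 6.57% of all promoters held that motif. Of the members not called with the block in the mean, IRS2 held 5 GC boxes at 76.4% GC and INSR 4 at 78.4% GC. GRB10, called lower, held 3 at each of its first 2 listed starts, at 81.6% GC, and 0 at its other starts. ERBB4, not tested, held 1 at 57.2% GC. GC boxes and a high GC content thus did not set the 4 genes shown apart from the other members. Promoters were listed for 9 of the 10 genes, all but ERBB3.

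The second comparison asked what 2 Gy did 24 h later. By edgeR without a block, 0 of 9 members changed in knockdown cells, beside 3.58% of all genes, and 0 of 9 changed in control cells, beside 2.26%. At an unadjusted p under 0.05 there were 0 in knockdown cells and 1, ERRFI1, in control cells, and DESeq2 called 0 in both. Such a p was found for 20.9% of all genes in knockdown cells and 21.8% in control cells. The numbers do not pair libraries across the tables, so no block was used. The luminal markers summed to between 7903 and 8593 CPM in irradiated knockdown libraries, against 6929 to 7754 CPM in non-irradiated ones. They summed to between 8599.5 and 10421 CPM in irradiated controls, against 7520 to 8041 CPM in non-irradiated controls. Of the 4 neuroendocrine markers, mostly ENO2, the sum was 25.5 to 47.9 CPM in irradiated knockdown libraries against 69.8 to 95.9 CPM in non-irradiated ones, and 27.3 to 45.3 CPM in irradiated controls against 53.9 to 82.1 CPM in non-irradiated controls, with CHGA and NCAM1 below 0.1 CPM in every library. Their part in the results was not tested.

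GRB10 averaged 479 ± 157 CPM in irradiated knockdown cells and 719 ± 79.4 CPM in non-irradiated knockdown cells, groups that did not overlap, as for 29.8% of all genes. Its log2 fold change in knockdown cells was -0.59 (SE 0.33, edgeR adjusted p = 0.330), and in control cells, at 580 ± 255 CPM after 2 Gy and 908 ± 160 CPM at 0 Gy, it was -0.65 (SE 0.33, adjusted p = 0.267). Without both libraries numbered 1 at 2 Gy it was -0.34 in knockdown cells (adjusted p = 0.167) and -0.33 in control cells (adjusted p = 0.232), and without all 4 libraries numbered 1 it was -0.31 (adjusted p = 0.0977) in knockdown cells and -0.46 (adjusted p = 0.0229) in control cells. In control cells none of the 9 genes had groups that did not overlap, beside 27.6% of all genes. ERRFI1 averaged 72.5 ± 10.3 CPM in irradiated knockdown cells and 80.2 ± 4.76 CPM in non-irradiated ones, and 56.4 ± 8.50 CPM in irradiated controls and 72.0 ± 7.68 CPM in non-irradiated controls. Its log2 fold change in controls was -0.35 (SE 0.14, unadjusted p = 0.0265, edgeR adjusted p = 0.172). Without both libraries numbered 1 at 2 Gy that became -0.49 (adjusted p = 0.0226), and with scaling by library size only it was -0.51 (adjusted p = 0.0441). Without all 4 libraries numbered 1, ERRFI1 was -0.31 in knockdown cells (adjusted p = 0.0490) and -0.55 in control cells (adjusted p = 0.00287).

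For IGF1R the direction after irradiation turned on the libraries that stood apart. With all libraries the log2 fold change was 0.28 in knockdown cells (SE 0.56, edgeR adjusted p = 0.815) and 0.46 in control cells (SE 0.56, adjusted p = 0.651). Without both libraries numbered 1 at 2 Gy it was -0.61 in knockdown cells (adjusted p = 0.178) and -0.44 in control cells (adjusted p = 0.390). Without all 4 libraries numbered 1 it was -0.74 (adjusted p = 0.00403) and, in controls, -0.64 (adjusted p = 0.0139). IRS1 averaged 6.49 ± 2.06 CPM in irradiated knockdown cells and 10.5 ± 2.06 CPM in non-irradiated ones, with a log2 fold change of -0.70 (SE 0.33, edgeR adjusted p = 0.248), and it was 5.28 ± 2.29 CPM in irradiated controls and 6.94 ± 0.752 CPM in non-irradiated controls, with -0.40 (SE 0.33, adjusted p = 0.493). Without both libraries numbered 1 at 2 Gy IRS1 was -0.48 in knockdown cells (adjusted p = 0.138) and -0.09 in controls (adjusted p = 0.845), and without all 4 it was -0.62 (adjusted p = 0.0192) in knockdown cells and -0.17 (adjusted p = 0.569) in controls. ERBB2 was -0.42 in knockdown cells (SE 0.24, edgeR adjusted p = 0.341) and -0.33 in controls (SE 0.24, adjusted p = 0.425). Without both libraries numbered 1 at 2 Gy it was -0.23 (adjusted p = 0.462) in knockdown cells and -0.17 (adjusted p = 0.670) in controls, and without all 4 it was -0.38 (adjusted p = 0.0326) in knockdown cells and -0.31 (adjusted p = 0.0903) in controls. EGFR had log2 fold changes of -0.05 in knockdown cells and 0.04 in control cells, each with an SE of 0.10.

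Likeness over the 12 libraries was measured as the root mean square difference of log2 CPM after centring each gene, for the 2 members with the widest ranges, over 11187 other genes of at least 5 CPM. IGF1R had a range of 2.18 log2 units, and the genes nearest to it were NDRG1 at 0.20, SNHG9 at 0.26 and TMEM79 at 0.28, beside a median of 0.70 over all genes. NDRG1 was 75.9 CPM in the irradiated knockdown library numbered 1 and 85.5 CPM in its control, and between 21.8 and 45.2 CPM elsewhere, so it was highest in the same pair of libraries as IGF1R. IRS1 had a range of 2.17 log2 units, and HECTD4 at 0.15, PER2 at 0.18 and KMT2C at 0.20 were nearest, beside a median of 0.60. HECTD4 averaged 101 CPM in irradiated and 159 CPM in non-irradiated knockdown cells, and 90.2 CPM in irradiated and 130 CPM in non-irradiated controls. The points of each profile share libraries, tables and depth.

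Around the receptors, 3 ErbB ligands fell in knockdown cells. Of 11 listed ligands 5 were tested, and with the block 3 fell and 0 rose in the mean of both doses, with a median log2 fold change of -0.59, beside 0.01 over all genes. Of all genes tested, 17.3% fell and 17% rose with the block. Without the block 1 fell, and the shares of all genes called without it were 2.32% higher and 4.2% lower. NRG4, a ligand of ERBB4, averaged 0.472 ± 0.275 CPM in irradiated knockdown cells and 2.27 ± 0.545 CPM in irradiated controls, and 0.533 ± 0.355 CPM in non-irradiated knockdown cells and 2.46 ± 1.402 CPM in their controls. Its log2 fold change was -2.25 (SE 0.22, edgeR adjusted p = 3.17e-05) with the block and -2.25 (SE 0.38, adjusted p = 0.00753) without it, the only call of this list without the block. EGF, the name-giving ligand of EGFR, averaged 4.02 ± 0.821 CPM in irradiated knockdown cells and 7.00 ± 2.72 CPM in irradiated controls, and 4.89 ± 1.77 CPM in non-irradiated knockdown cells and 9.29 ± 2.38 CPM in their controls. It fell by 0.85 log2 units with the block (SE 0.11, edgeR adjusted p = 0.000184), and HBEGF, another EGFR ligand, fell by 0.36 (SE 0.09, adjusted p = 0.0116). Without the block their adjusted p was 0.0570 for EGF and 0.0577 for HBEGF. The neuregulins NRG1 and NRG2, amphiregulin (AREG) and EREG each stayed below 0.2 CPM in every library.

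Of 14 listed ligands, binding proteins and further receptors of the insulin and IGF family 7 were tested, and with the block 1 rose and 1 fell in the mean of both doses, with a median of -0.02. Of all genes 17% rose and 17.3% fell in that fit, close to the share here. IGFBP2, which binds IGFs outside the cell, rose by 0.14 log2 units (SE 0.05, edgeR adjusted p = 0.0354), and IGF2R, which clears IGF2, fell by 0.23 (SE 0.06, adjusted p = 0.0159); without the block neither was called. IGF1 was called higher at 0 Gy with the block (0.80, SE 0.24, adjusted p = 0.0265), at 2.51 ± 0.679 CPM in knockdown cells and 1.41 ± 0.183 CPM in controls. After 2 Gy, IGFBP2 in controls averaged 103 ± 43.1 CPM, against 38.3 ± 0.667 CPM without irradiation, a log2 fold change of 1.43 (SE 0.27, edgeR adjusted p = 0.0258). IGF2 was also called higher there, at 0.594 ± 0.285 CPM in irradiated and 0.0579 ± 0.0635 CPM in non-irradiated controls. A count of 0 in those non-irradiated controls allows up to 0.132 to 0.203 CPM at the unscaled library size, so their IGF2 level cannot be told from 0. IGF2 passed the filter on low counts only through irradiated libraries. It could thus be tested only where it was high, and its call is not used as support. In knockdown cells IGFBP2 averaged 95.2 ± 33.1 CPM after 2 Gy and 49.5 ± 2.67 CPM without (adjusted p = 0.0784), and IGF2 averaged 0.319 ± 0.128 CPM after 2 Gy and 0.0879 ± 0.0451 CPM without (adjusted p = 0.177). The interaction of knockdown and 2 Gy was called for neither (unadjusted p = 0.222 for IGFBP2 and 0.156 for IGF2, edgeR without the block). INS was at 0 in every library.

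Of 29 adaptors and PI3K pathway genes 26 were tested. With the block 6 rose and 6 fell in the mean of both doses, with a median of -0.01, and 6 of 26 in each direction is close to the 17% higher and 17.3% lower of all genes. The same shares and the median of 0.01 over all genes are the background of the counts with the block in the lists that follow. The smallest p-values were those of a PI3K subunit and a lipid phosphatase of the pathway: PIK3CB, a catalytic subunit, fell by 0.54 log2 units (SE 0.05, edgeR adjusted p = 1.11e-05), and INPP4B, which removes a phosphate from a PI3K product, fell by 1.14 (SE 0.10, adjusted p = 1.09e-05). PIK3CB averaged 80.9 ± 4.78 CPM in irradiated knockdown cells and 120 ± 13.99 CPM in irradiated controls, and 81.6 ± 7.32 CPM in non-irradiated knockdown cells and 116 ± 2.75 CPM in their controls. Without the block these were the only calls of the list, PIK3CB at an adjusted p of 0.00299 and INPP4B at 0.0426. The regulatory subunit PIK3R3 rose by 0.43 (SE 0.06, adjusted p = 0.000471) and the kinase AKT1 by 0.35 (SE 0.05, adjusted p = 0.000496) with the block. SH2B1, an adaptor of the insulin receptor, was lower after 2 Gy in knockdown cells (-0.67, SE 0.12, adjusted p = 0.0165) and in controls (-0.54, SE 0.12, adjusted p = 0.0447), by edgeR without the block.

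Among 26 negative regulators 23 were tested, and with the block 8 rose and 5 fell in the mean of both doses, with a median of 0.09. Without the block PIK3IP1, PTPRF, DUSP4 and PHLPP2 rose, and TRIB3, RNF41 and SPRED1 fell. The dual-specificity phosphatase DUSP4, which switches off ERK, averaged 132 ± 29.3 CPM in irradiated knockdown cells and 80.1 ± 27.2 CPM in irradiated controls, and 131 ± 32.0 CPM in non-irradiated knockdown cells and 75.4 ± 16.2 CPM in their controls. It rose by 0.78 log2 units with the block (SE 0.06, edgeR adjusted p = 3.29e-06). PTPRF, a receptor phosphatase that acts on the insulin receptor, rose by 0.46 with the block (SE 0.05, adjusted p = 5.98e-05), while the ubiquitin ligase NEDD4 fell by 0.68 (SE 0.07, adjusted p = 5.34e-05) and SPRED1, an inhibitor of the RAS pathway, fell by 0.71 (SE 0.08, adjusted p = 9.44e-05) in the same fit. NEDD4 was not called without the block (adjusted p = 0.124). RNF41, a ligase that targets ERBB3, averaged 175 ± 9.92 CPM in irradiated knockdown cells and 238 ± 50.6 CPM in irradiated controls, and 243 ± 15.2 CPM in non-irradiated knockdown cells and 343 ± 22.7 CPM in their controls, with a log2 fold change of -0.47 without the block (SE 0.10, edgeR adjusted p = 0.0228). TRIB3, which binds AKT, fell by 0.89 in the mean without the block (SE 0.19, adjusted p = 0.0213), and it was lower after 2 Gy in knockdown cells (-1.43, SE 0.28, adjusted p = 0.0219) and in controls (-1.65, SE 0.28, adjusted p = 0.0162).

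Of 16 genes that read out the ERK pathway 11 were tested, and with the block 5 rose and 1 fell in the mean of both doses, with a median of 0.31. This list shares DUSP4, DUSP5, DUSP6, SPRY2, SPRY4 and SPRED1 with the negative regulators. CCND1, which encodes cyclin D1, averaged 391 ± 37.2 CPM in irradiated knockdown cells and 297 ± 35.7 CPM in irradiated controls, and 299 ± 12.6 CPM in non-irradiated knockdown cells and 220 ± 10.6 CPM in their controls, a rise of 0.42 log2 units (SE 0.04, edgeR adjusted p = 3.87e-05). DUSP5, a nuclear ERK phosphatase, rose by 0.97 with the block (SE 0.15, adjusted p = 0.000669) at levels of 1.14 to 3.15 CPM per group, and it was not called without it (adjusted p = 0.0637). Without the block 3 rose, CCND1, DUSP4 and EPHA2, and SPRED1 fell. ETV1, a transcription factor on this list, was higher after 2 Gy in knockdown cells (1.37, SE 0.29, adjusted p = 0.0325) and in controls (1.46, SE 0.29, adjusted p = 0.0301). It averaged 254 CPM over all libraries, against 0.0727 CPM for ETV4 and 0.421 CPM for ETV5, and whether it reads out ERK in this line was not tested.

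FOXO targets are genes that are restrained when AKT is active. Of 20 genes listed as such, with FOXO1, FOXO3 and FOXO4 themselves among them, 19 were tested. With the block 3 rose and 6 fell, with a median of -0.07. This list shares PIK3IP1 with the negative regulators and RICTOR with the adaptors. SESN3, a stress-induced inhibitor of mTORC1 signalling, rose by 0.73 log2 units (SE 0.06, edgeR adjusted p = 1.07e-05), BCL2L11, which encodes the death protein BIM, rose by 0.34 (SE 0.05, adjusted p = 0.000303), and PIK3IP1, an inhibitor of PI3K, rose by 0.44 (SE 0.06, adjusted p = 0.000326). CDKN1B, which encodes the cell cycle inhibitor p27, fell by 0.20 (SE 0.04, adjusted p = 0.00290). Without the block PIK3IP1 and BCL2L11 rose and 0 fell, and neither SESN3 (adjusted p = 0.133) nor CDKN1B (adjusted p = 0.446) was called. SESN1, a p53-responsive sestrin, was higher after 2 Gy in knockdown cells (1.00, SE 0.14, adjusted p = 0.00499) and in controls (0.87, SE 0.14, adjusted p = 0.0139). All 14 chaperone and protease genes of receptor maturation were tested, of which 2 rose and 1 fell with the block, with a median of 0.07. HSP90AA1, the inducible chaperone that stabilises ERBB2 among many kinases, rose by 0.37 (SE 0.05, adjusted p = 0.000244), at 3068 ± 263 CPM in irradiated knockdown cells and 2404 ± 359 CPM in irradiated controls, and it was also called without the block (adjusted p = 0.0343).

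**Figure D5:**
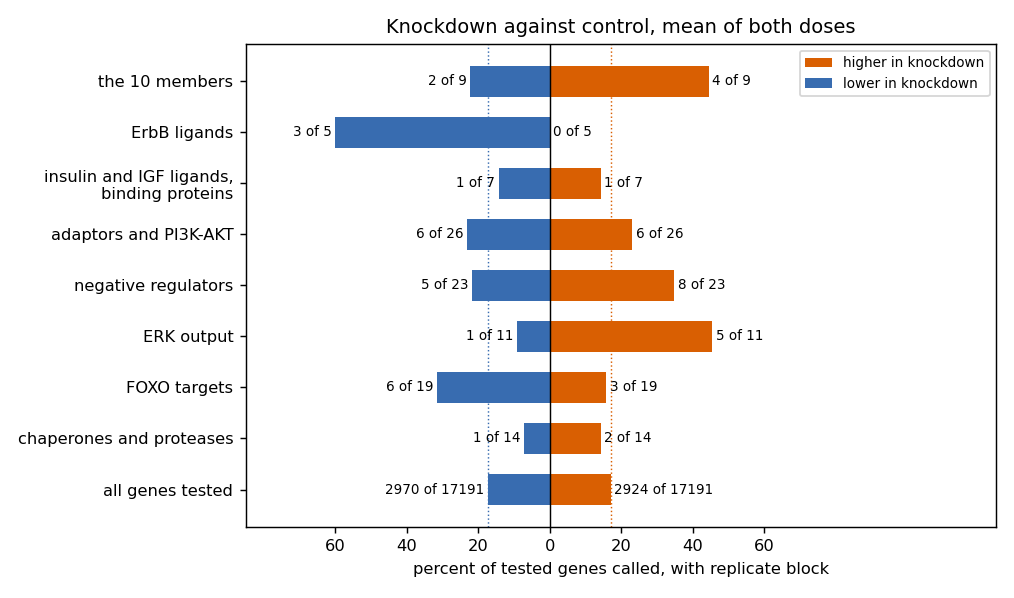
Percent of tested genes called higher (right) and lower (left) in knockdown in the mean of both doses with the replicate block, for the members and 7 lists of related genes, with counts beside the bars and dotted lines at the share over all genes. Of the ErbB ligands 3 of 5 were called lower and 0 higher, beside 17.3% and 17% of all genes.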

How the data were processed

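Trizol extracts were turned into polyA-selected libraries, per the labels' protocols. The authors deposited unnormalized counts for each gene, with exon coordinates and lengths per the file headers, in one table per radiation dose. GRCh38 was the build and STAR 2.5 the aligner named in the submitters' processing notes, beside Subread 1.5.3 with featureCounts, and edgeR 3.20.8; the sources used here give no aligner options, strand setting or annotation release. The members and the lists of related genes were chosen with earlier results of these data known.

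Of 63299 genes, 17191 passed filterByExpr (minimum count 10, minimum total 15). One model of edgeR 4.0.16 (R 4.3.3), with TMM scaling, group means and robust quasi-likelihood, was fitted to all 12 libraries, leaving 8 residual degrees of freedom; the common biological coefficient of variation was 0.216. The test was checked on simulated counts. Genes were called at an adjusted p (Benjamini-Hochberg) under 0.05, and a 95% interval and SE are from the fit named beside them. The fit with the block is a separate model with a term for each pair, so it leaves fewer than 8 residual degrees of freedom. CPM values were computed from the counts with TMM-scaled library sizes. Of the replicate numbers, same-numbered libraries within a table had correlations of their deviations from the group means between 0.749 and 0.857 at 2 Gy and between 0.199 and 0.382 at 0 Gy, each of the 6 pairs over 0.1. Libraries of other numbers within a table ran from -0.779 to 0.588. At 2 Gy knockdown 2 with control 3 gave 0.588 and knockdown 3 with control 2 gave 0.509, so numbers 2 and 3 were less clearly told apart there. The numbers were therefore taken to pair knockdown with control libraries within a table. That pairing comes from the data, and the fit with the replicate block is given beside the fit without it. Across tables the correlations ran from -0.175 to 0.216, and the numbers do not pair libraries there. DESeq2 1.42.0, other scalings, no filter, the block, and leaving out libraries were the alternatives. Named genes of a list are those called, at most 4 a list and comparison by smallest p; genes like a member are the 3 nearest profiles. Intervals on counts of 0 cover counting error only.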

Additional observations from a re-analysis of the deposited data

How the results depend on the processing

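The number of members called changed most with the replicate block and with leaving out the libraries numbered 1. With the replicate block 6 members were called in the mean of both doses, 3 at 0 Gy, 1 at 2 Gy and, across tables that the numbers do not pair, 1 between doses in knockdown cells (ERBB2, -0.43, adjusted p = 0.0461); 5894, 4776 and 1974 genes were called for knockdown in the mean, at 0 Gy and at 2 Gy, and 1157 and 965 for irradiation in knockdown and control cells. The block changed no other call of a member. With the block, leaving out 1 pair gave 0 to 2 members at 2 Gy, 2335 to 5234 genes at 0 Gy, 282 to 3449 at 2 Gy, 3862 to 6674 in the mean and 0 to 712 in the interaction, for which DESeq2 with the block called 65. There IRS2 at 0 Gy ran from -0.21 to 0.066, INSR at 2 Gy from -0.0067 to 0.12 and GRB10 in the interaction from -0.013 to 0.29.

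Without the block, library size only gave 614 genes and 1 member for irradiation in controls, with ERBB3 at -0.018 and EGFR at -0.11, and no filter gave 592 genes. Using only the 6 libraries compared gave 1486 genes at 0 Gy, 1 at 2 Gy, and 344 and 64 for irradiation in knockdown and control cells. DESeq2 called 1047 genes at 0 Gy, 273 at 2 Gy, 2035 in the mean, 1438 and 1377 for irradiation in knockdown and control cells and 1 in the interaction. Without both libraries numbered 1 at 2 Gy, an alternative chosen after seeing the data, 2564, 326 and 3378 genes were called for knockdown at 0 Gy, at 2 Gy and in the mean, with 1 member at 0 Gy and 3 in the mean, and 1806 and 868 for irradiation in knockdown and control cells, with 1 member in controls. There INSR was -0.017 for knockdown at 2 Gy and 0.10 for irradiation in controls, IGF1R was -0.61 and -0.44 for irradiation in knockdown and control cells, and GRB10 was -0.0073 in the interaction. Without all 4 libraries numbered 1, also chosen after seeing the data, 3525, 1461 and 4761 genes were called for knockdown, 3628 and 2593 for irradiation in knockdown and control cells and 307 in the interaction, with 3, 1 and 5 members for knockdown and 4 and 3 for irradiation. There IRS2 was 0.044 for knockdown at 0 Gy, INSR -0.018 at 2 Gy, ERBB3 -0.081 for irradiation in controls, and IGF1R -0.74 in knockdown and -0.64 in control cells for irradiation. The cause was not tested.

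Leaving out 1 library without the block gave 31 to 989 genes for knockdown at 0 Gy, 4 to 254 at 2 Gy and 440 to 2780 in the mean with 0 to 2 members, and 76 to 1489 and 24 to 648 for irradiation in knockdown and control cells. The fold changes that crossed 0 ran, for knockdown at 0 Gy, from -0.0019 to 0.29 (ERBB2) and -0.30 to 0.069 (IRS2). At 2 Gy they ran from -0.59 to 0.00024 (GRB10), -0.73 to 1.06 (IGF1R), -0.13 to 0.23 (ERBB2), -0.017 to 0.56 (IRS1) and -0.10 to 0.21 (INSR), and in the mean from -0.19 to 0.70 (IGF1R). For irradiation in controls they ran from -0.0031 to 0.29 (ERBB3), -0.44 to 0.81 (IGF1R), -0.031 to 0.11 (EGFR) and -0.21 to 0.12 (INSR), and in knockdown cells from -0.61 to 0.60 (IGF1R) and -0.21 to 0.12 (IRS2). In the interaction they ran from -0.25 to 0.34 (GRB10), -1.07 to 0.72 (IGF1R), -0.26 to 0.10 (ERBB2) and -0.28 to 0.066 (INSR). Where a fit left out a library, the spread was pooled over all groups. IRS1 and IRS2, at 64 to 361 reads a library, carry the widest counting error.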
